A study of Mus musculus with 4 samples.

Results

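The splicing factor genes described here are the members of 4 gene families, found by symbol in a read count table of single group 2 innate lymphoid cells (ILC2) from mouse pancreas. They were the rows named Srsf followed by a digit (SR proteins), Hnrnp (heterogeneous nuclear ribonucleoproteins, hnRNPs), Sf3a or Sf3b followed by a digit (subunits of the SF3 complex) and Snrp (small nuclear ribonucleoprotein, snRNP, proteins), without pseudogene symbols. This gave 45 of 11352 gene rows, with 9 SR proteins, 17 hnRNPs, 8 SF3 subunits and 11 snRNP proteins. ILC2 are tissue lymphocytes known for type 2 cytokines. Single cells were sorted into 4 plates with 384 wells each. Libraries were made with SORT-seq, which builds on CEL-seq2 and counts 3′ ends of polyadenylated RNA. The mice were of C57BL6J genotype, and their cells held the photoconvertible protein KIKR, whose fluorescence changes from green to red under violet light. A photoconverted (KIKR-red) cell was thus marked by light before the sort, and a non-photoconverted (KIKR-green) cell was not. The series title names fasting, but the labels used here give no feeding state, age, animal or lit organ for any cell, so the 2 colours within 1 plate were the comparison available.

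Splicing removes introns from pre-mRNA on the spliceosome, a machine built of snRNPs. Most of the major snRNPs hold a ring of Sm proteins (Snrpb, Snrpd1, Snrpd2, Snrpd3, Snrpe, Snrpf and Snrpg) and particle-specific proteins such as Snrpc in U1 and Snrpa1 and Snrpb2 in U2. SF3a and SF3b belong to the U2 snRNP and hold it at the branch point, with Sf3b1 as the largest subunit of SF3b. SR proteins mostly bind exonic enhancers and promote the use of exons, while many hnRNPs coat nascent RNA and often act against them. Both families shape alternative splicing in activated lymphocytes.

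Row names could be used on plate 1 only. Rows named as mitochondrial held 5.63% of the reads of plate 1 and 0.0110 to 0.0531% of those of the other plates. Across all rows, the number of wells in which a row had reads gave a Spearman rho between plate 1 and another plate of 0.0173 to 0.0764. On plate 1, 8 of 12 photoconverted and 98 of 151 non-photoconverted cells had at least 500 genes with a read and under 25% mitochondrial reads. Each colour is therefore 1 pool of cells from 1 sample, cells are not replicates, and no p-value was computed. Photoconverted cells gave more reads of genes (56539 to 1677643, median 540662) than non-photoconverted ones (17825 to 1274117, median 187690) and more genes at 1 read (median 2748.5 against 1637). Each photoconverted cell was therefore set against its 5 nearest non-photoconverted cells by number of genes, which gave 29 distinct cells with a weighted median of 2718.5 genes. The match was less close on other scales. Genes at 16 reads had a median of 1834.5 in photoconverted cells and a weighted median of 1569.5 in matched cells. For reads of genes these were 540662 and 483926. Of the 9 ILC2 markers, Gata3, Il1rl1 and Klrg1 were found in 8 of 8 photoconverted cells, Areg in 7, Il2ra in 6, Il7r and Icos in 4, Rora in 2 and Il17rb in 1. In non-photoconverted cells Il7r was in 61.2% and Il17rb in 30.6%. All 8 photoconverted cells held 3 or more of these markers. Of the 98 non-photoconverted cells, 76 held 3 or more of the ILC2 markers. The lists for other cell types had few rows, between 0 and 4 each. Cd3e and the acinar genes Cela1 and Cpa1 reached 16 reads in 0 cells, and the endocrine list had 0 rows. Single markers of other lists were present: Cst3 (myeloid) in 6 of 8 photoconverted and 29.6% of non-photoconverted cells, Kit (mast cell) in 5 of 8 and 18.4%, Ltb (ILC3) in 4 of 8 and 46.9%, and Cd3g (T cell) in 2 of 8 and 9.18%. The mean CPM (reads per 1000000 reads of genes) of Cst3 was 223 in photoconverted and 130 in matched cells, and that of Kit 280 and 154. Their part in the results below was not tested. A further pair of cells stood apart: 2 non-photoconverted cells held 6 of 8 cycling markers each, and made up 15% of the matched weight. Calls that these cells change are given with and without them.

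Promoters are shown for the 2 members with the largest difference between the colours in each direction among those with a RefSeq promoter: Srsf2 and Sf3b3 were found in fewer photoconverted than matched cells, and Srsf10 and Snrpb2 in more. Each run is the 250 bases before the RefSeq start on GRCm38.p6, 5′ to 3′ along the gene. Capitals mark CCGGAAG or its reverse complement CTTCCGG (the core bound by ETS factors), CCAAT or ATTGG (the CCAAT box) and TATAAA or TTTATA (the TATA box), each searched on both strands and counted apart from the others.
Srsf2 (chr11:116853095-116853344, - strand): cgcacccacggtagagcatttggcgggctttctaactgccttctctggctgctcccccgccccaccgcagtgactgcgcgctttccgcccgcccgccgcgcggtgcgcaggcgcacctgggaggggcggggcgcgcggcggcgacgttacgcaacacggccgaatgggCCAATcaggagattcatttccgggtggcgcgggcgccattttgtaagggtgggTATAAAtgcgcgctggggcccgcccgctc
Srsf10 (chr4:135855821-135856070, + strand): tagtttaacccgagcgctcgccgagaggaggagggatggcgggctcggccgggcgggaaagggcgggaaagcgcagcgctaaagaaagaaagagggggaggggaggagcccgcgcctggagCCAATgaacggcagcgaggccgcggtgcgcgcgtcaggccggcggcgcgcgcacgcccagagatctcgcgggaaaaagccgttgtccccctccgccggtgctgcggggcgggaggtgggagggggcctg
Sf3b3 (chr8:110846804-110847053, - strand): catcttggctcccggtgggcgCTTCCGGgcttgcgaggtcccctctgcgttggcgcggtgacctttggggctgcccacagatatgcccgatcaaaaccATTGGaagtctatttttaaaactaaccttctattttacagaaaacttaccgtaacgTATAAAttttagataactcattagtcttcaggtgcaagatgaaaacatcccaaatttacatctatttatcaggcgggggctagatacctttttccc
Snrpb2 (chr2:143062819-143063068, + strand): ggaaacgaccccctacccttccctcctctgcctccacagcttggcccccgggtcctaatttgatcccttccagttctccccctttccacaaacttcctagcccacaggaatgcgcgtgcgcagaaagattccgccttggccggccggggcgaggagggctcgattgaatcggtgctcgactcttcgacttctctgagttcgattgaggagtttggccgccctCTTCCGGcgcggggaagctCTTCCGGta
Srsf2 carried a TATA box and a CCAAT box in a window with 33 CpG, and Srsf10 a CCAAT box with 33 CpG and no TATA box. Snrpb2 had a pair of ETS-type cores close to its RefSeq start. GENCODE M21 starts Srsf10 (135855747) and Snrpb2 (143063039) further upstream than RefSeq. The Srsf10 window and the Snrpb2 cores thus lie inside the GENCODE genes. Sf3b3 held 1 match to each of these 3 motifs and 11 CpG. The motifs thus differed between the members detected less often as well as between those detected more often.

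Of the 45 members, 40 had a RefSeq promoter, and the families differed in the motifs these held. The ETS-type core was in 13 of 40 members (32.5%), against 16.9% of 2443 measured genes and 7.05% of all 27025 promoters of the table. It was in 5 of 6 SF3 promoters (Sf3a1, Sf3a2, Sf3a3, Sf3b2 and Sf3b3, but not Sf3b1), in 3 of 9 SR and 3 of 9 snRNP promoters, and in 2 of 16 hnRNP promoters (Hnrnpd and Hnrnpf). The CCAAT box had another distribution, with 11 of 16 hnRNP promoters, 2 of 6 in SF3 and 3 of 9 in each other family. Over all members it was in 47.5%, against 35.7% of measured genes and 34.5% of all promoters. TATAAA was in 5 members (12.5%, against 5.77% and 13.0%), among them Srsf2 and Srsf3. The GC box GGGCGG (both strands) was in 67.5% of members and 63.8% of measured genes. A match is a description of these windows, and binding was not measured.

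Most members were found in a minority of the cells. A gene counted as detected in a cell at 16 or more reads, since single reads also occurred in empty wells. At that level no member was found in more than 0.452% of the 221 empty wells. In non-photoconverted cells the share ran from 1.02% (Hnrnph3) to 59.2% (Hnrnpa2b1), and only 4 hnRNPs (Hnrnpa2b1, Hnrnpa3, Hnrnpc and Hnrnpu) and Sf3b1 reached 50% or more. By family the range was 4.08 to 44.9% for SR proteins, 1.02 to 59.2% for hnRNPs, 3.06 to 53.1% for SF3 and 6.12 to 46.9% for snRNP proteins. In all, 6 members (Srsf9, Hnrnph3, Hnrnpul1, Sf3a3, Snrpa and Snrpa1) were below 10% of all 106 cells and were left out of the counts below. Of these, Srsf9 and Hnrnpul1 were found in 1 of 8 photoconverted cells each, and Hnrnph3 and Sf3a3 in 0 of 8, which allows a share of up to 37.5%. That left 39 measured members: 8 SR proteins, 15 hnRNPs, 7 SF3 subunits and 9 snRNP proteins. The filter used both colours together.

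The number of members in a cell followed the number of genes in it. Photoconverted cells held 2 to 33 members (median 22), matched cells 2 to 35 (weighted median 20) and all non-photoconverted cells 0 to 35 (median 11). Across the 98 non-photoconverted cells, Spearman's rho between members and genes was 0.927, a description of cells that share a plate, in which both counts depend on depth. Members made up a median of 1.11% of the detected genes of photoconverted cells, 1.22% in the distinct matched cells and 1.22% in all non-photoconverted cells. The 2 cycling cells held 30 and 33 members, with 3459 and 3586 genes. By family, 1 of 8 photoconverted cells lacked any SR protein, SF3 subunit or snRNP protein, and the same cell, number 8, had only 938 genes. Among non-photoconverted cells, 16 had no SR protein, 3 no hnRNP, 29 no SF3 subunit and 16 no snRNP protein.

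**Figure D1:**
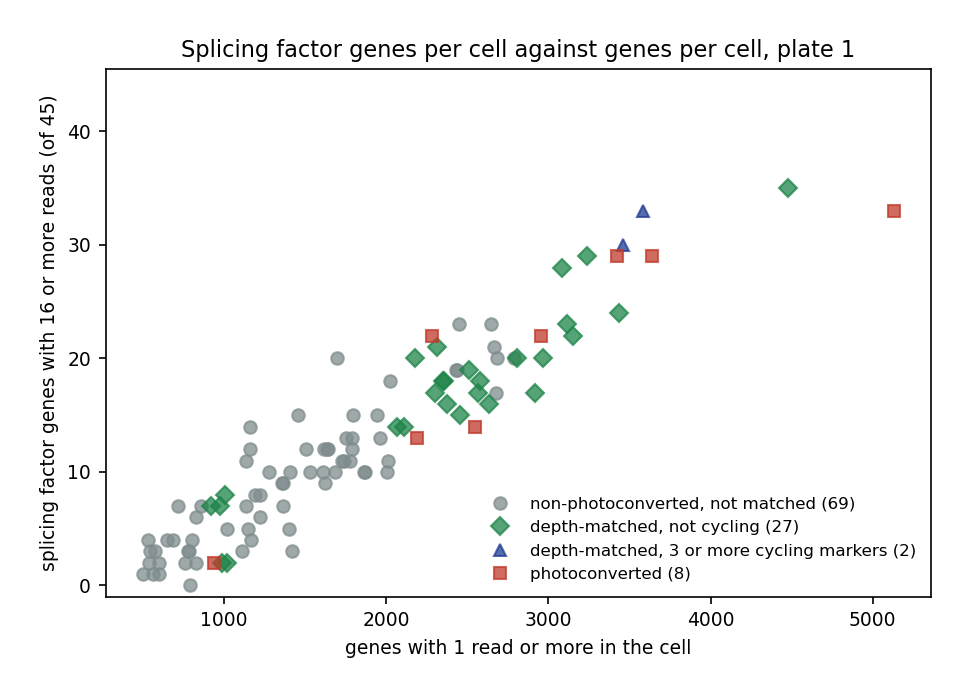
Number of the 45 splicing factor genes with 16 or more reads in each cell (vertical axis) against the number of genes with a read in the cell (horizontal axis), for photoconverted, depth-matched, cycling and other non-photoconverted cells of plate 1. Both colours lie along 1 band, from 0 to 35 members.

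After matching for depth, the members differed between the colours in both directions. Of 39 measured members, 17 had a larger share in photoconverted cells, 16 had a smaller one and 6 were equal, and the median difference was 0 percentage points. Over all 3188 measured genes the median was 2.5 points, with 54.4% higher and 38.6% lower, against 43.6% and 41.0% of the members. With 8 photoconverted cells, 1 cell moves a share by 12.5 points, and a difference of 25 points or more was taken as large. In all, 4 of 39 members (10.3%) were higher by that size: Srsf10, Sf3b4, Snrpb2 and Snrpd3. The background over all measured genes was 12.5%. Another 6 of 39 (15.4%) were lower by that size, against a background of 5.8%: Srsf2, Sf3b3, Hnrnpul2, Srsf11, Hnrnpab and Sf3b1. That background is not like for like, since a gene with a matched share under 25% cannot be lower by 25 points. The median matched share was 52.5% over measured members and 32.5% over all measured genes. Without the 2 cycling cells the counts were 4 higher and 5 lower, against 14.6% and 6.02% of all genes, but not of the same genes. Snrpd3 (22.5 points) and Sf3b1 (−22.5) were then within the limit, and Hnrnpl (30 points) passed it. The median over members was then 5 points, the same as over all measured genes. Drawing every cell down to 5000 reads and counting a gene at 1 read left 0 higher, against 3.61% of all genes, and 2 lower, Srsf2 and Sf3b3, against 1.54%.

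**Figure D2:**
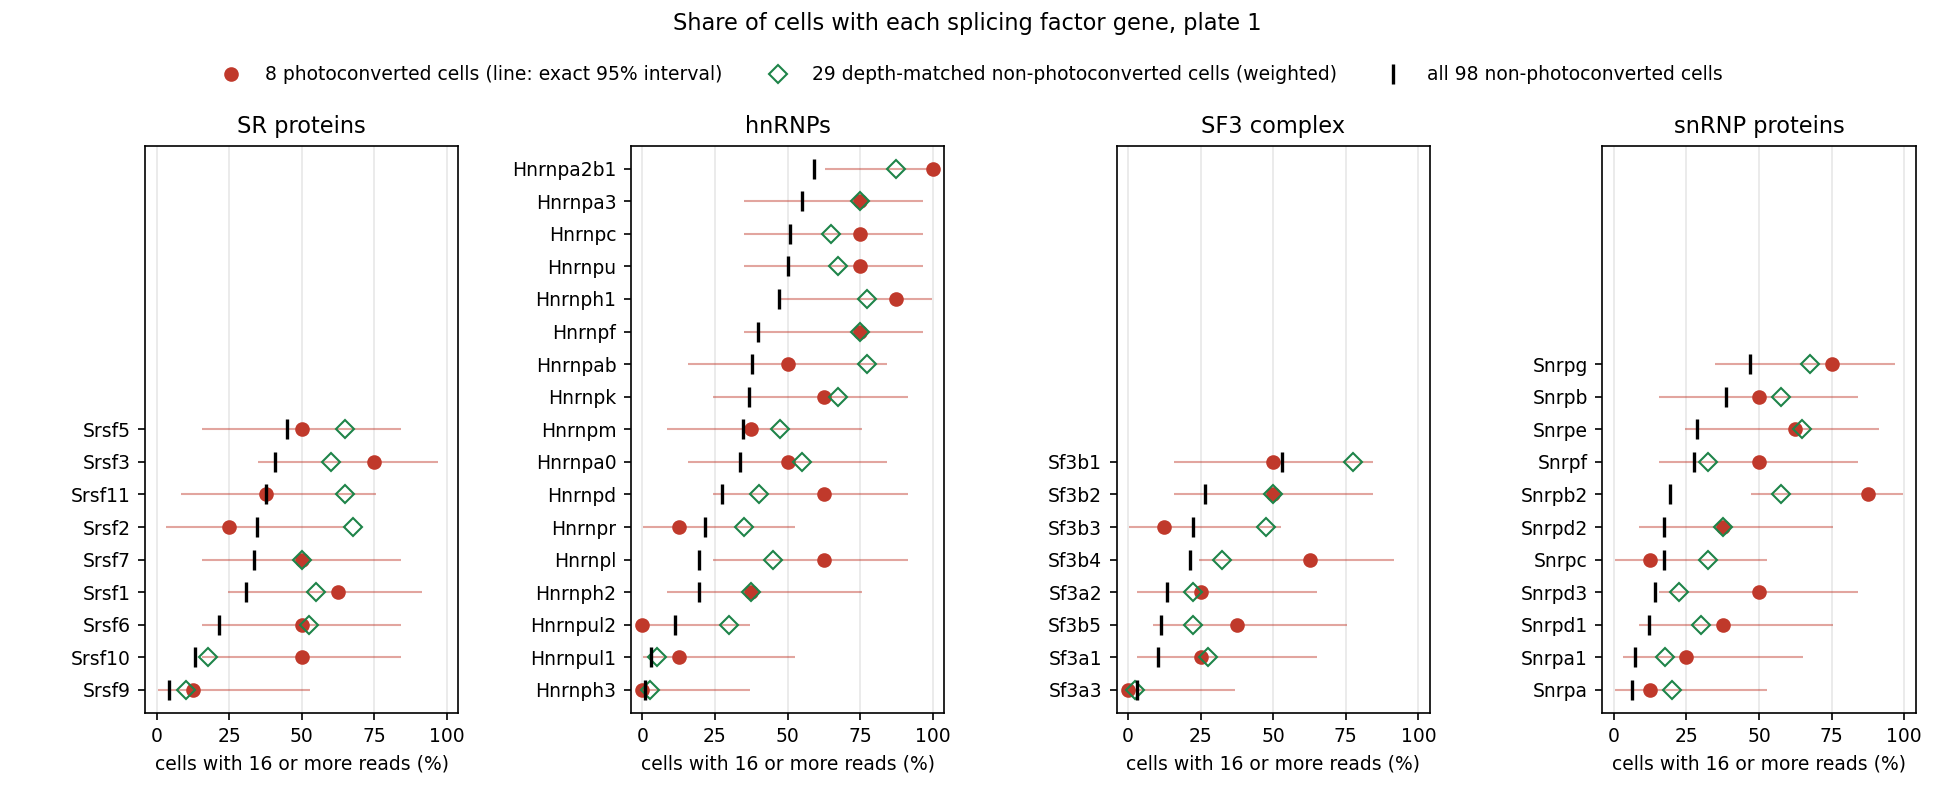
Share of cells with 16 or more reads (horizontal axis, %) of each of the 45 members by family. Filled circles are the 8 photoconverted cells with exact 95% intervals, open diamonds the depth-matched and black ticks all 98 non-photoconverted cells. Most diamonds lie right of the ticks, and circles lie on either side of the diamonds.

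Intervals below are exact 95% (Clopper-Pearson) intervals of a share over the photoconverted cells, and cover counting error of cells only. Matched shares are weighted, and coordinates are those of the gene in GENCODE M21 on mm10. Values are reads and not molecules, so they can carry amplification noise.

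SR proteins differed among themselves more than they differed as a family. The median difference of the 8 measured members was −1.25 points, with 3 higher, 4 lower and 1 equal, and turned to 5 without the 2 cycling cells. Srsf2, an SR protein that binds exonic enhancers and is confined to the nucleus (chromosome 11, 116849901 to 116853094), was lowest in comparison. In the photoconverted cells numbered 1 to 8 it had 0, 0, 351, 822, 3, 7, 0 and 0 reads, and in matched cells 0 to 945 with a median of 71. Only cells 3 and 4 were high, and the groups overlapped. It was thus detected in 2 of 8 photoconverted cells (3.19 to 65.1%) and 67.5% of matched cells, a difference of −42.5 points, against 34.7% of all non-photoconverted cells. Its exons overlap those of Mettl23 and Mfsd11 on the other strand, and the strand used in counting is not given in the sources used here. Mettl23 was detected in 2 photoconverted and 7 non-photoconverted cells, and Mfsd11 in 0 and 3.

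Srsf10, an SR-related protein that acts as a repressor when dephosphorylated (chromosome 4, 135855747 to 135869908), showed the opposite order. Its reads were 78, 0, 141, 109, 0, 0, 190 and 0 in photoconverted cells, and 0 to 165 with a median of 0 in matched cells. Cells 1, 3, 4 and 7 held 78 or more reads, and the other 4 were at 0. The shares were 4 of 8 (15.7 to 84.3%) and 17.5%, a difference of 32.5 points, or 16.5 after drawing down to 5000 reads. Srsf11, an SR-type protein known to bind the U2 auxiliary factor (chromosome 3, 158010473 to 158036639), had 210, 25, 9, 848, 0, 0, 9 and 0 reads, and 0 to 2104 with a median of 51 in matched cells. It was detected in 3 of 8 (8.52 to 75.5%) against 65%, but in 37.8% of all non-photoconverted cells, so its difference of −27.5 points was −0.255 without depth matching. A pair of photoconverted cells lay just under the limit, at 9 reads.

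The most widely detected SR protein in non-photoconverted cells, Srsf5 (chromosome 12, 80945504 to 80950507), was found in 44.9% of them, in 65% of matched cells and in 4 of 8 photoconverted cells. Its reads were 237, 0, 52, 620, 0, 0, 46 and 0, so that cells 1, 3, 4 and 7 held all of them. The same 4 cells held all reads of Srsf10. Srsf3, the smallest SR protein, was found in 6 of 8 against 60%, Srsf1, the founding member, in 5 of 8 against 55%, Srsf6 in 4 of 8 against 52.5% and Srsf7 in 4 of 8 against 50%. None of these 4 differed by more than 15 points.

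The hnRNPs were the most widely detected family, with a median share over measured members of 36.7% of non-photoconverted cells (34.2% for SR proteins, 21.4% for SF3 and 19.4% for snRNP proteins). Of 15 measured members 6 were higher, 6 lower and 3 equal, with a median difference of 0, and 0 were higher by 25 points. Hnrnpa2b1, an RNA-binding protein of the A/B group (chromosome 6, 51460932 to 51469894), was the only member found in all 8 photoconverted cells (63.1 to 100%). Its reads there were 97, 510, 274, 839, 338, 21, 290 and 91, and 0 to 893 with a median of 164 in matched cells, of which 87.5% had it. Hnrnpa3 (6 of 8 against 75%), Hnrnpf (6 of 8 against 75%) and Hnrnph2 (3 of 8 against 37.5%) were equal, and Hnrnpc, Hnrnph1, Hnrnpu, Hnrnpa0, Hnrnpk and Hnrnpm differed by 10 points or less. Hnrnpl, known for regulating Ptprc (CD45) exons in lymphocytes, was found in 5 of 8 against 45%, a difference of 17.5 points that was 30 without the 2 cycling cells.

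At the lower end, Hnrnpul2, an hnRNP U-like protein (chromosome 19, 8820010 to 8834143), had 0, 0, 0, 1, 0, 0, 3 and 0 reads in photoconverted cells and 0 to 247 with a median of 0 in matched cells. It was detected in 0 of 8, which allows a share of up to 36.9%, and in 30% of matched and 11.2% of all non-photoconverted cells. Hnrnpab, a relative of Hnrnpd (chromosome 11, 51600100 to 51606847), split the photoconverted cells. It had 4, 536, 363, 918, 0, 2, 568 and 0 reads, so that 4 cells were high and 4 near 0, against 0 to 1870 with a median of 67 in matched cells. The shares were 4 of 8 (15.7 to 84.3%) and 77.5%. Against all non-photoconverted cells, of which 37.8% had it, the difference of −27.5 points turned to 12.2. Just inside the limit, Hnrnpr (1 of 8 against 35%) was lower by 22.5 points and Hnrnpd (5 of 8 against 40%), which binds AU-rich mRNA, was higher by 22.5.

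Within the SF3 complex, the SF3b subunits lay on both sides and the SF3a subunits close together. The 7 measured members had a median difference of 0, with 3 higher, 3 lower and 1 equal. Sf3b1, which contacts the branch point (chromosome 1, 54985169 to 55027481), had 664, 3, 381, 1154, 1, 1, 579 and 1 reads in photoconverted cells. Cells 1, 3, 4 and 7 were high, and the other 4 had 1 to 3 reads, so that 8 of 8 held at least 1 read. Matched cells had 0 to 1209 with a median of 158, and the shares were 4 of 8 (15.7 to 84.3%) and 77.5%, a difference of −27.5 points, or −22.5 without the 2 cycling cells. Sf3b1 was also found in 53.1% of all non-photoconverted cells. Sf3b3, a scaffold subunit of SF3b (chromosome 8, 110810239 to 110846787), had 2, 0, 0, 1, 0, 0, 106 and 0 reads, and 0 to 1538 with a median of 1 in matched cells. Only cell 7 reached the limit (1 of 8, 0.316 to 52.7%, against 47.5%), a difference of −35 points. Its exons overlap Cog4 on the other strand, detected in 2 photoconverted and 3 non-photoconverted cells.

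Sf3b4, the SF3b subunit with a pair of RNA recognition motifs (chromosome 3, 96172332 to 96177564), went the other way. Its reads were 43, 80, 673, 6, 39, 0, 1236 and 0 against 0 to 4054 with a median of 3 in matched cells, and it was found in 5 of 8 (24.5 to 91.5%) and 32.5%, a difference of 30 points. Its mean level was 350 CPM in photoconverted and 522 in matched cells. Of the matched mean, 83.4% came from 1 cycling cell, and without the 2 cycling cells it was 230 CPM, below the photoconverted mean. Sf3b2 (4 of 8 against 50%) was equal, Sf3b5 (3 of 8 against 22.5%) was higher by 15 points, and Sf3a1 and Sf3a2 (2 of 8 each, against 27.5% and 22.5%) differed by 2.5.

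snRNP proteins had the highest family median, 7.5 points, with 5 higher, 3 lower and 1 equal of 9 measured members. That is 5 points above the median of all measured genes and less than 1 photoconverted cell. After drawing down to 5000 reads the snRNP median was 0.43 points, below the 2.49 points of hnRNPs. Snrpb2, the U2 B″ protein that binds U2 snRNA (chromosome 2, 143063039 to 143072853), had 219, 152, 163, 269, 64, 45, 131 and 0 reads in photoconverted cells. Every photoconverted cell but number 8 was above the limit, whereas matched cells had 0 to 338 with a median of 13. It was found in 7 of 8 (47.3 to 99.7%), in 57.5% of matched cells and in 19.4% of all non-photoconverted cells (12.1 to 28.6%). Its mean level was 209 CPM in photoconverted, 126 in matched and 51.4 in all non-photoconverted cells, and its difference in share of 30 points was 24.7 after drawing down to 5000 reads. Snrpa1, its partner in U2, was in 2 of 8 and 17.5%, below the 10% limit over all cells.

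Among the Sm proteins, 4 of 7 were higher, 2 lower and 1 equal, with a median of 7.5 points. Snrpd3 (chromosome 10, 75517551 to 75537381) had 127, 22, 50, 13, 0, 0, 145 and 0 reads and 0 to 162 with a median of 0 in matched cells. It was found in 4 of 8 (15.7 to 84.3%) against 22.5%, a difference of 27.5 points that was 22.5 without the 2 cycling cells, 8.09 after drawing down and 2.5 at a limit of 64 reads. Its exons overlap Gucd1 on the other strand, detected in 0 photoconverted and 4 non-photoconverted cells. Snrpg (chromosome 6, 86371304 to 86379328), the most widely detected snRNP protein, had 176, 94, 31, 77, 71, 1, 183 and 0 reads, was found in 6 of 8 against 67.5%, and reached 17 reads in 1 empty well. Snrpf was found in 4 of 8 against 32.5%, Snrpd1 in 3 of 8 against 30%, Snrpd2 in 3 of 8 against 37.5%, Snrpb in 4 of 8 against 57.5% and Snrpe in 5 of 8 against 65%. The U1 protein Snrpc, found in 1 of 8 against 32.5%, was the lowest of the family at −20 points. Of the U1 proteins, Snrpa was found in 1 of 8 against 20%.

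**Figure D3:**
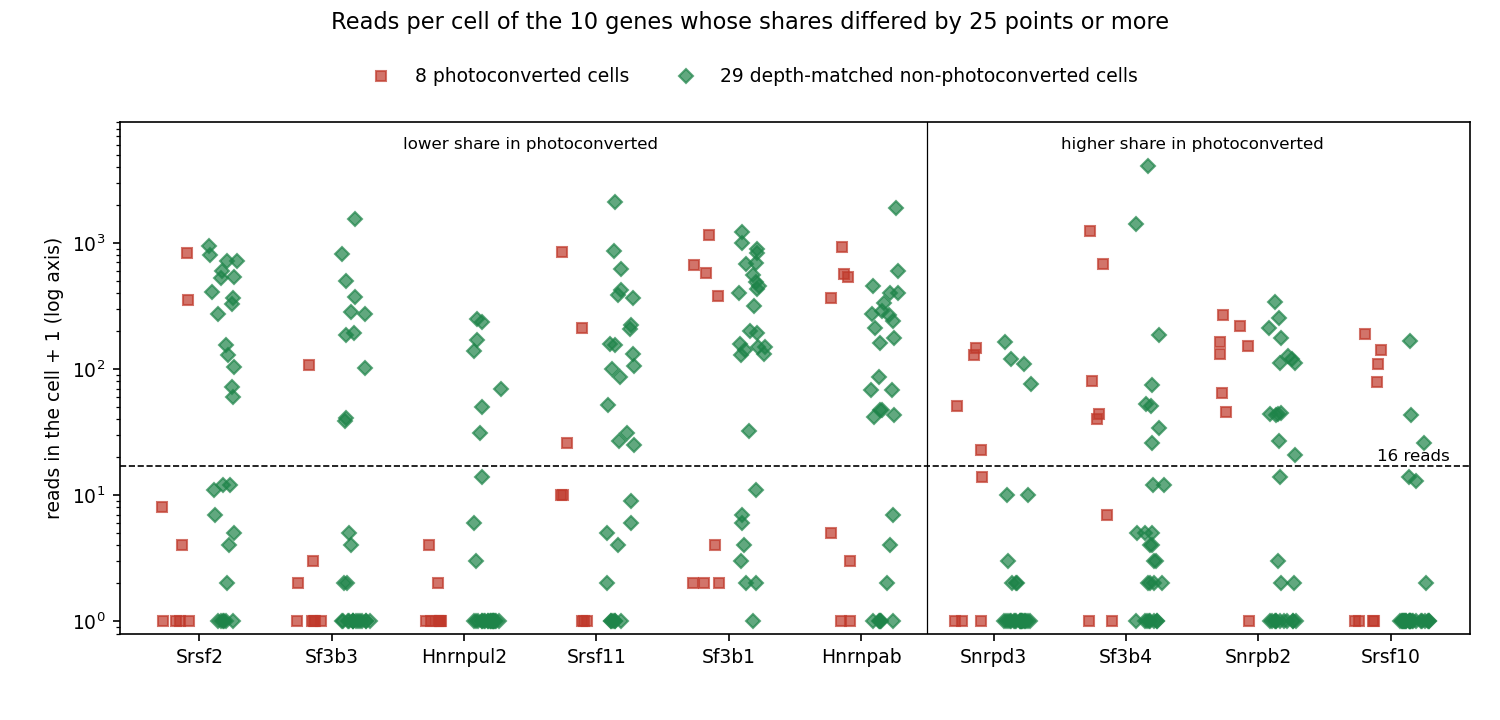
Reads in each cell plus 1 (log axis) of the 10 members whose shares differed by 25 points or more, for the 8 photoconverted and 29 depth-matched cells; the dashed line is the limit of 16 reads. The groups overlap for each of the 10 genes, and only Snrpb2 has 7 photoconverted cells above the line.

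The same photoconverted cells recurred among the members above. Cell 8, the shallowest with 56539 reads of genes, reached 16 reads in 2 members, and cells 5 and 6, with 13 and 14 members, lacked Srsf2, Srsf5, Srsf10, Srsf11, Sf3b1, Sf3b3, Hnrnpab and Snrpd3 at that limit. Cell 6 had 2545 genes, more than cell 2, which held 22 members with 2282 genes. Without cell 6, the members lower by 25 points numbered 3 in place of 6, against 6.71% of all genes. The red intensities of cells 7 and 8 (2202 and 2338 units) were the lowest of the photoconverted cells and nearest to the highest non-photoconverted value, 1527. Without cells 7 and 8 the counts were 6 higher, against 14.5% of all genes, and 6 lower, against 8.12%.

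Levels were compared as the summed CPM of each family per cell; only the ratio between colours is read here, since read numbers of different genes depend on amplification. SR proteins summed to 124 to 2175 CPM in photoconverted cells (mean 1129), against a weighted mean of 1910 in matched and 2373 in all non-photoconverted cells, a log2 ratio to matched cells of −0.76. SF3 subunits were at 88.4 to 1999 CPM (mean 1061), against 1783 and 2032, a log2 ratio of −0.75. hnRNPs were at 1858 to 8980 CPM (mean 3731), against 4309 and 4407, a log2 ratio of −0.21. snRNP proteins were at 70.7 to 1630 CPM (mean 928), against 1080 and 1004, a log2 ratio of −0.22. In each family the cells of the colours overlapped, and all 4 ratios were below 0. By single gene, on mean CPM plus 10, the median log2 ratio was −0.13 over 39 members and −0.27 over all 3188 measured genes. Other lists of splicing genes, described below, had summed ratios of −0.31 and −0.43.

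The cycling markers also had a lower mean in photoconverted cells, and their part in these family levels was not tested. Their summed level over 8 genes was 0 to 38.1 CPM in photoconverted cells (mean 5.87), with 7 of the 8 at 16 reads in 0 of these cells, and 0 to 3487 CPM in non-photoconverted cells, with a matched mean of 424. Without the 2 cycling cells, the log2 ratios were −0.66 for SR proteins, −0.39 for SF3, −0.14 for hnRNPs and −0.01 for snRNP proteins. With the 2 cycling cells kept and medians over cells in place of means, they were −0.56 for SR proteins, −0.32 for SF3 and −0.35 for hnRNPs. For snRNP proteins the medians were 832 CPM in photoconverted and 970 CPM in matched cells. Without photoconverted cells 7 and 8, the hnRNP and snRNP ratios were above 0, at 0.04 and 0.15. Single cells carried much of some matched means: 1 cell gave 63.4% of that of Srsf10, 53.7% of that of Snrpd1 and 44.6% of that of Snrpd3. The 2 cycling cells gave 49.5% of that of Hnrnpab, whose matched mean was 511 CPM with them and 336 without, against 388 in photoconverted cells.

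**Figure D4:**
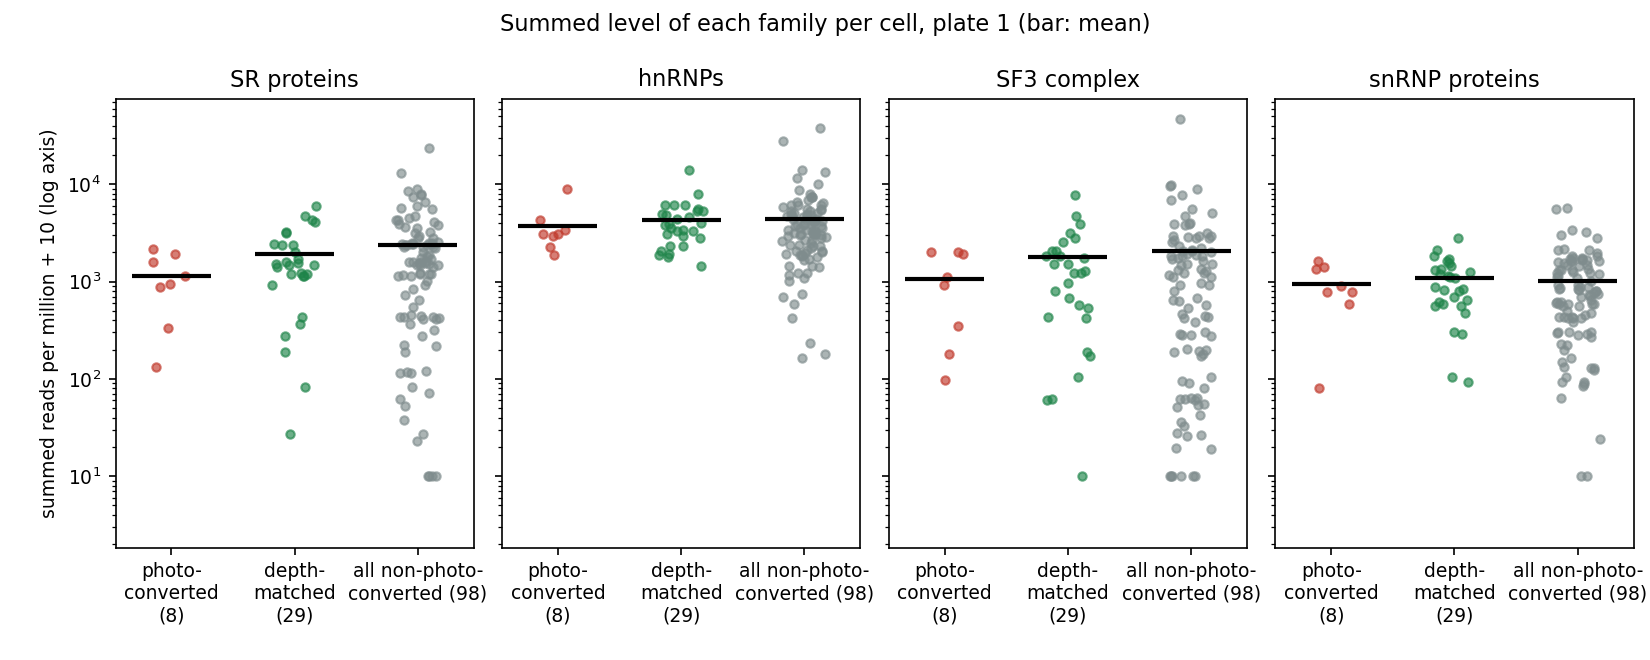
Summed CPM plus 10 of each family (log axis) in every cell, for the 8 photoconverted, 29 depth-matched and all 98 non-photoconverted cells of plate 1. Bars are means, weighted for matched cells, and those of photoconverted cells are the lowest of the 3 groups in each family. Photoconverted cells lie within the range of the matched cells for SR proteins, hnRNPs and SF3. For snRNP proteins the lowest photoconverted cell (70.7 CPM) lies below the lowest matched cell (83.3 CPM).

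By gene, on mean CPM plus 10, 2 of 39 members (5.13%) were at least 2-fold higher in photoconverted than in matched cells, against 11.4% of all measured genes. These were Snrpf (220 against 80.2 CPM) and Srsf10 (77.5 against 27.4 CPM). At least 2-fold lower were 7 of 39 (17.9%), against 26.5%. They were Sf3b3 (13.1 against 266 CPM), Hnrnpul2 (0.432 against 69.2), Snrpc (4.93 against 72.9), Snrpe (51.2 against 228), Hnrnpr (4.17 against 44.9), Srsf2 (142 against 523) and Srsf11 (117 against 370). Snrpe stood apart from the others in that its share differed by only 2.5 points. Its median CPM among cells that had it was 43.8 in photoconverted cells and 308 in all non-photoconverted cells, without depth matching. Non-photoconverted cells had a lower median of reads of genes, and at fewer reads the detection limit stands for a higher CPM. The part of depth in this gap was not tested. At a limit of 64 reads the difference in share of Snrpe against matched cells was −42.5 points. For Snrpb2 the order of the medians among cells that had it was the reverse. They were 271 CPM in photoconverted and 103 CPM in all non-photoconverted cells, again without depth matching.

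Other genes of the pathway, from 2 lists, also lay on both sides. Of 79 other spliceosome and snRNP assembly genes with a row, 37 were measured, of which 13 were higher, 20 lower and 4 equal, with a median of −2.5 points. In this list 1 of 37 (2.70%) was higher by 25 points or more, against 12.5% of all measured genes. It was Sf1, the branch point binding protein that precedes U2 (7 of 8 against 55%), at 32.5 points. The level of Sf1 was lower, with a log2 ratio of −0.83. Another 2 of 37 (5.41%) were lower by that size, against 5.80% of all measured genes. Xab2, a component of the activated spliceosome (0 of 8 against 40%), and Snw1, a further one (2 of 8 against 60%), were lower by 40 and 35 points. Of 54 other splicing regulators and SR protein kinases with a row, 40 were measured, of which 21 were higher and 19 lower, with a median of 2.5 points. Higher by 25 points or more were 5 of 40 (12.5%), the same share as over all genes. These were Ptbp1, the polypyrimidine tract binding protein (6 of 8 against 45%), Tial1 (4 of 8 against 20%), Rbm3 and Srrm2 (7 of 8 each against 62.5%) and Tra2a (4 of 8 against 25%).

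**Figure D5:**
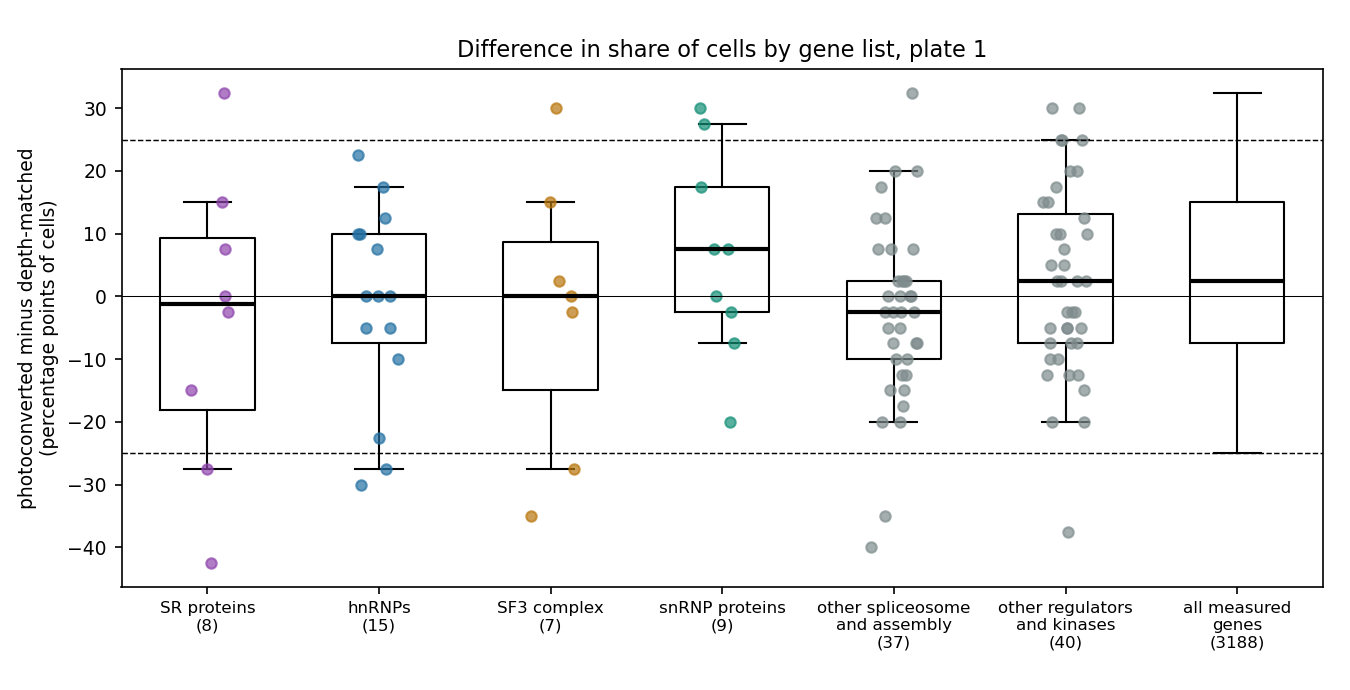
Difference in share of cells, photoconverted minus depth-matched (vertical axis, percentage points), for each measured gene of the 4 families and the 2 pathway lists, with boxes at the quartiles and whiskers from the 5th to the 95th percentile. Family medians run from −1.25 to 7.5 points and that of all 3188 measured genes is 2.5, with dashed lines at 25 points either way.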

How the data were processed

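Single ILC2 of 4 plates were sorted by colour, and the authors deposited raw read counts per gene row and well, with a sort record that holds, per the file headers, the phenotype and red fluorescence intensity of each well in arbitrary units. The submitters' processing notes list the tools STAR, STARsolo and edgeR and the build mm10. Their versions, the counting strand and the annotation are not given in the sources used here. The values were taken as reads not collapsed to molecules, as the table's own name has it. Plate 1 held 52614294 reads, of which 43.2% were in 78 spike-in rows that were left out of totals and CPM.

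From these counts, detection (16 reads), depth-matched shares (5 nearest cells, 29 distinct, worth 22.9 equal ones), mean CPM (10 added for single genes) and expected shares after drawing down to 5000 reads (0 cells fell below) were computed in Python 3.11.15 with numpy 2.4.6, pandas 2.3.3 and scipy 1.17.1. The code was run on non-photoconverted cells standing in for photoconverted ones, with chosen genes raised to detection in each stand-in. That run checked the direction of a difference and the draw-down. It set no requirement on how often unraised genes pass 25 points. Members needed 16 reads in 10% of cells to be counted. Every member could be named; reads per cell are given for members past 25 points and the most widely detected of each family, and genes of the 2 pathway lists are named past that limit, except 1 that is not reported here. No doublet caller was run on sorted single cells. Coordinates are from GENCODE M21 (45 of 45 matched), promoters from RefSeq on GRCm38.p6. Exons of 21 members overlap another gene, and for 9 that gene has a row. The alternatives were the detection limit, the matching, the draw-down, the cell and member filters, cycling cells and each photoconverted cell; leaving out the 2 cells of lowest red intensity was added after seeing the data. The members, lists and tests were chosen with earlier results of these data known. Because 1 sample was usable, no test was run.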

Additional observations from a re-analysis of the deposited data

How the results depend on the processing

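Of 186 family values and counts under other settings, 174 stayed close to the reported ones and 12 moved. Close meant within 12.5 points, 0.58 on the log2 scale or 1.5 times a count. A change of sign was scored only from a value past its limit, which no family median was and which a count cannot show. Smaller values did change sign: the SR median was −1.25 points as reported and 3.75 with the 10 nearest cells. The hnRNP and snRNP level ratios changed sign without the 2 photoconverted cells of lowest red intensity. Without depth matching, the median differences were 22.4 points for SR proteins, 24.0 for hnRNPs, 14.8 for SF3 and 25.3 for snRNP proteins, beside 15.8 for all measured genes, and 18 members were higher and 0 lower by 25 points, against 35.6% and 0.0941% of all genes. Drawn down to 5000 reads, 0 were higher and 2 lower, against 3.61% and 1.54%. The SF3 median was −15 points at a limit of 4 reads, and the SR median −17.5 at 64 reads. Leaving out 1 photoconverted cell in turn gave 3 to 7 members lower by 25 points, with 3 without cell 6. Of the 10 members past the limit, 9 kept their sign in all 18 alternatives and 0 stayed past the limit in all of them. Srsf10, Srsf2 and Sf3b3 were past it in 17, Snrpb2 in 16, Hnrnpul2 in 15, Sf3b1 and Sf3b4 in 12, Snrpd3 in 11, Srsf11 in 10 and Hnrnpab in 9. Hnrnpab reversed, to 12.2 points, without depth matching. The 18 alternatives were not independent of each other. Dropping the member filter leaves the value of each member unchanged. Requiring 1000 genes per cell gave the same member counts and all-gene shares as leaving out photoconverted cell 8. No paired analysis was possible because only plate 1 could be named and the comparison came from no test. With 8 photoconverted cells of 1 sample, differences under 12.5 points are below the step of 1 cell.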
